A study of Saccharomyces cerevisiae with 12 samples.

Results

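Glutathione is the small sulfur-containing peptide that keeps the yeast cytosol reduced. The 10 genes described here make it, recycle it and use it: GSH1 and GSH2 for synthesis, GLR1 for recycling, the transferase genes GTT1 and GTT2, the peroxidase genes GPX1 and GPX2, and the glutaredoxin genes GRX1, GRX2 and GRX5. They were chosen by name, and each was represented by 1 probe set among 5449 genes measured. Levels are log2 signals, so 1 unit is a doubling, and a level of 1 gene is never set against that of another.

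Total RNA of liquid cultures of Saccharomyces cerevisiae was hybridised to 12 Affymetrix arrays, 3 for each of 4 groups. The groups were slt2-deficient cells given 100 µM sodium arsenate for 2 h, slt2-deficient cells left untreated, wild-type cells given the same arsenate for 2 h, and wild-type cells left untreated. All were of the BY4741 background, a haploid laboratory strain, and all grew exponentially in rich YEPD medium at 30 °C, the untreated ones being sampled at 0 h. Slt2 is the MAP kinase at the end of the cell wall integrity cascade. Arsenate and 2 h of further growth cannot be told apart here, and the labels do not say whether replicates were grown separately. P-values therefore reflect no more than the variation among these arrays, part of which may be technical. BY4741 carries deletions of LEU2, URA3, HIS3 and MET17, a gene of sulfide incorporation, in every group. A level is that of a bulk culture, in which fewer cells that express a gene and less RNA per cell cannot be told apart.

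In yeast, glutathione synthesis begins with the ligation of glutamate and cysteine by Gsh1, the rate-limiting step, and Gsh2 then adds glycine. Glutathione and glutaredoxin donate electrons to the arsenate reductase Arr2, and glutathione binds the arsenite that results, so that the vacuolar pump Ycf1 can carry the conjugate away. Glr1 returns oxidised glutathione to its reduced form with NADPH. The transcription factor Yap1 turns on several genes of this system under oxidative and metal stress, and Msn2 and Msn4 turn on others in the general stress response.

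The arrays carried the genotypes that their labels state. SLT2 lay between 5.22 and 5.81 on the 6 slt2 arrays, against 10.66 to 11.01 on the 6 wild-type arrays, and 3 of the deleted marker genes (LEU2, URA3, MET17) gave 3.74 to 5.47 over the 12 arrays. The wild-type arrays differed among themselves much more than the slt2 arrays. The median SD of a member was 0.08 in slt2 with arsenate, 0.05 in slt2 untreated, 0.72 in wild type with arsenate and 0.29 in wild type untreated. A set of 3 wild-type arrays stood apart, namely arsenate arrays 1 and 2 and untreated array 2. Omitting them leaves arsenate array 3 as the only array of its group. The members' values with these 3 arrays omitted are given beside the comparisons below. They are a description and no independent check, since the 3 arrays were picked from these same data. On these arrays a list of 20 general stress genes had a median of 3.52, 2.03 and 0.95 above each gene's mean over the 12 arrays, while on the other 9 arrays it lay between -1.03 and -0.22. For 15 genes under glucose repression, which is lifted as glucose is used up, the median reached 5.26 on arsenate array 1 of wild type and stayed between -0.71 and 0.19 elsewhere. The 3′ minus 5′ signal of 7 control transcripts, a measure of RNA quality, was 1.79 on wild-type arsenate array 2 and 1.59 on wild-type untreated array 2, and 0.92 to 1.18 on the rest.

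**Figure D1:**
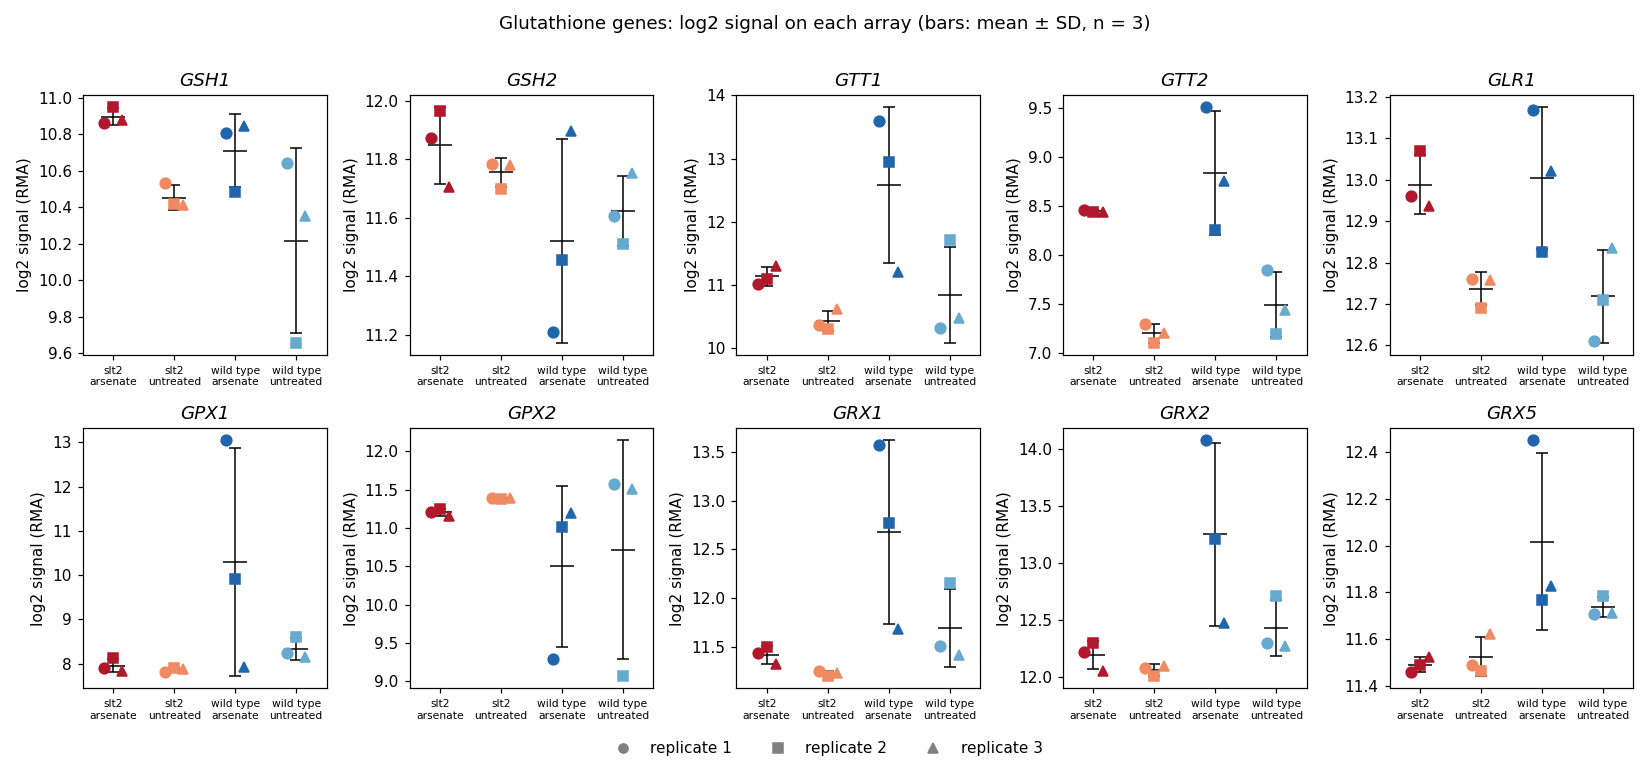
Log2 signal (RMA, vertical axes, each with its own scale) of the 10 glutathione genes on each array, with the 4 groups along the horizontal axes; marker shapes give the replicate number, and bars the mean ± SD of 3 arrays. In slt2 the 3 arsenate arrays lay above the 3 untreated arrays for GSH1, GTT1, GTT2, GLR1 and GRX1 and below them for GPX2, while wild-type values were spread widely, as for GPX1 from 7.93 to 13.05 with arsenate.

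The first comparison asked how these genes differed in slt2 cells after 2 h with arsenate. A synthesis gene and both transferase genes rose: GTT2 was 2.37-fold, GTT1 1.63-fold and GSH1 1.36-fold higher. Limma called these 3 of 10 members higher and none lower at an adjusted p under 0.05. Of all genes, 1.91% were called higher and 0.551% lower. Arsenate and untreated arrays did not overlap for 6 members. In 5 of these the arsenate arrays were higher, beside 15.3% of all genes, and in 1 they were lower, beside 7.27% of all genes. The median log2 fold change was 0.16 over the members and 0.03 over all genes tested.

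GSH1 (locus YJL101C), which sets the rate of glutathione synthesis, gave 10.86, 10.95 and 10.88 on the slt2 arsenate arrays, against 10.53, 10.42 and 10.41 on the slt2 untreated arrays. All 3 arsenate arrays were higher, and neither group spanned more than 0.121 log2 units. This gave a log2 fold change of 0.44 (SE 0.06, 95% confidence interval 0.31 to 0.58, adjusted p = 0.0135). The call was lost when slt2 untreated array 3, arsenate array 1 or arsenate array 2 was left out, with adjusted p = 0.0688, 0.0542 and 0.0649, although the log2 fold change stayed between 0.42 and 0.48 over the 6 arrays left out in turn. GSH2 (YOL049W), the second enzyme of the pathway, gave 11.87, 11.97 and 11.71 with arsenate, against 11.78, 11.70 and 11.78 untreated. Its groups overlapped, and the log2 fold change of 0.09 did not pass (95% confidence interval -0.09 to 0.27, adjusted p = 0.615).

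GTT2 (YLL060C) encodes a glutathione transferase, an enzyme that joins glutathione to reactive compounds. It gave 8.46, 8.44 and 8.44 on the slt2 arsenate arrays, against 7.30, 7.10 and 7.20 on the untreated ones. The arsenate arrays spanned 0.02 log2 units, and all lay above every untreated array. The log2 fold change of 1.25 (SE 0.06, 95% confidence interval 1.10 to 1.39, adjusted p = 0.000379) had rank 4 by p among all genes, and the call held in each of the 6 fits with 1 slt2 array omitted (adjusted p 0.000678 to 0.00554). In the model on all 12 arrays, which shares 1 spread with wild type, none of the 3 calls held (adjusted p = 0.596 for GTT2 and 1 for GSH1 and GTT1).

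GTT1 (YIR038C), the other transferase, gave 11.01, 11.10 and 11.30 on slt2 arsenate arrays, against 10.37, 10.31 and 10.61 on untreated ones. The groups did not overlap, and arsenate array 3 and untreated array 3 were the highest of their groups. The log2 fold change was 0.71 (SE 0.11, 95% confidence interval 0.45 to 0.96, adjusted p = 0.0271). This call depended on the arrays: it held without slt2 untreated array 3 (adjusted p = 0.043) and was lost when any other slt2 array was left out. Without untreated arrays 1 and 2 the adjusted p was 0.0701 and 0.0678, and without arsenate arrays 1, 2 and 3 it was 0.0542, 0.101 and 0.0674. Over the 6 omissions its log2 fold change was 0.62 to 0.80.

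Glr1, the glutathione reductase, is the enzyme of recycling. Its gene GLR1 (YPL091W) gave 12.96, 13.07 and 12.94 with arsenate in slt2, against 12.76, 12.69 and 12.76 untreated. All 3 arsenate arrays were higher, but the log2 fold change of 0.25 missed the threshold (SE 0.05, adjusted p = 0.0746). Of the alternatives run, GLR1 passed with array weights per group, with a second quantile normalization and with a prior that follows the signal level (adjusted p = 0.0205, 0.0366 and 0.000233).

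Neither peroxidase gene passed in slt2. Gpx1 and Gpx2 reduce peroxides, including those of membrane lipids. GPX2 (YBR244W) gave 11.21, 11.25 and 11.15 with arsenate, against 11.39, 11.38 and 11.39 untreated, so that all 3 arsenate arrays were lower. Its log2 fold change of -0.18 did not pass (SE 0.05, 95% confidence interval -0.29 to -0.07, adjusted p = 0.115). GPX1 (YKL026C) gave 7.91, 8.12 and 7.83 with arsenate, against 7.81, 7.89 and 7.88 untreated. The groups overlapped, with a log2 fold change of 0.09 (95% confidence interval -0.11 to 0.29, adjusted p = 0.661).

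The glutaredoxins reduce disulfides and mixed disulfides of proteins with glutathione. Grx1 and Grx2 are a related pair of dithiol enzymes, and Grx5 is a mitochondrial monothiol protein of iron-sulfur cluster assembly. GRX1 (YCL035C) gave 11.43, 11.50 and 11.32 in slt2 with arsenate, against 11.25, 11.19 and 11.23 untreated. The groups did not overlap, but the log2 fold change of 0.19 did not pass (SE 0.06, adjusted p = 0.166). GRX2 (YDR513W) gave 12.22, 12.30 and 12.06 with arsenate, against 12.08, 12.01 and 12.10 untreated, a log2 fold change of 0.13 (adjusted p = 0.439). GRX5 (YPL059W) gave 11.46, 11.49 and 11.52 with arsenate, against 11.49, 11.46 and 11.62 untreated. Of the 10 members GRX5 had the smallest log2 fold change in size, -0.03 (95% confidence interval -0.17 to 0.10, adjusted p = 0.837).

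**Figure D2:**
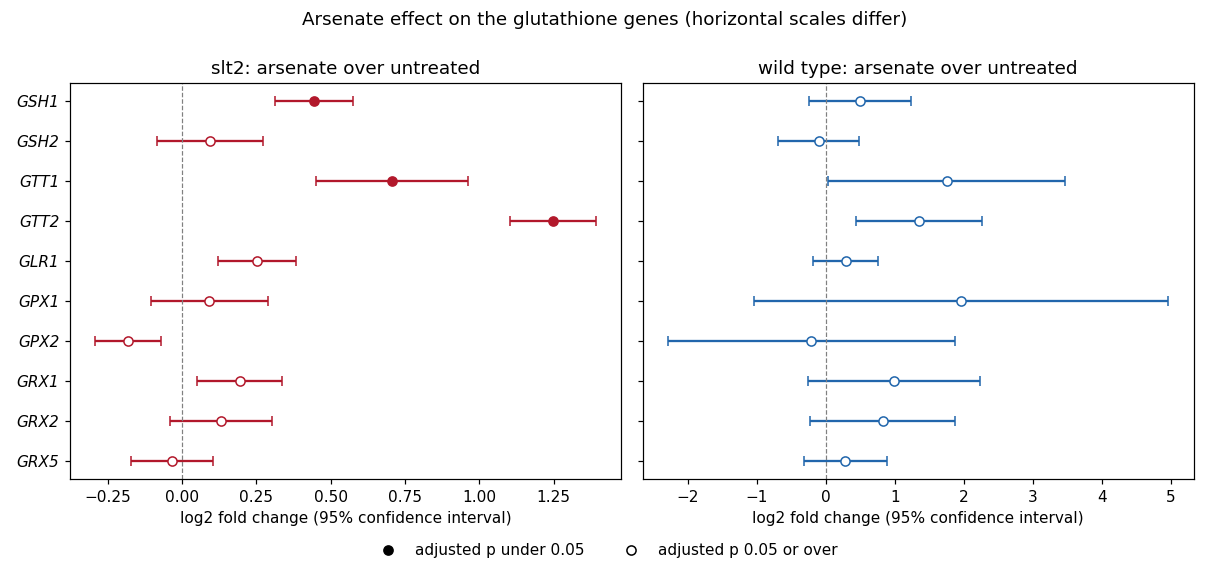
Log2 fold change of each member, arsenate over untreated (horizontal axes, which differ in scale between the panels), with its 95% confidence interval, in slt2 (left) and wild type (right). Filled points passed an adjusted p under 0.05: GSH1, GTT1 and GTT2 in slt2, at 0.44, 0.71 and 1.25, and no member in wild type, where the interval of GPX1 ran from -1.04 to 4.96.

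The second comparison put the same question to wild-type cells. No member was called, and limma called 0% of all genes in either direction, with 72 genes (1.32%) at an unadjusted p under 0.05. GTT2 and GTT1 were the 2 members with an unadjusted p under 0.05. The model on all 12 arrays called no member here either. The median log2 fold change was 0.66 over the members and 0.06 over all genes. Over the members it was 0.43 without wild-type arsenate array 1 and 0.22 with the 3 stood-apart arrays omitted. GTT2 was the 1 member whose arsenate and untreated arrays did not overlap, where 5.65% of all genes were apart with arsenate higher and 2.92% with arsenate lower.

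GTT2 gave 9.51, 8.25 and 8.75 on the wild-type arsenate arrays, against 7.85, 7.19 and 7.44 on the untreated arrays. Every arsenate array was higher than every untreated one, by 2.02, 0.76 and 1.26 log2 units over the untreated mean. The log2 fold change was 1.35 with a 95% confidence interval of 0.43 to 2.27 (adjusted p = 0.631). With the 3 stood-apart arrays omitted, 1 arsenate array remained, whose spread was taken to equal that of the other groups, and the log2 fold change was 1.11 (adjusted p = 0.131). GSH1 gave 10.81, 10.48 and 10.84 with arsenate, against 10.64, 9.66 and 10.35 untreated. The groups overlapped through arsenate array 2 and untreated array 1. Its log2 fold change was 0.49 (95% confidence interval -0.25 to 1.24, adjusted p = 0.631), and 0.35 without those 3 arrays.

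GTT1, GRX1 and GRX2 were high on the wild-type arrays where general stress genes were high. GTT1 gave 13.59, 12.95 and 11.20 with arsenate, against 10.32, 11.71 and 10.48 untreated. GRX1 gave 13.57, 12.77 and 11.68 with arsenate, against 11.51, 12.15 and 11.41 untreated. GRX2 gave 14.07, 13.20 and 12.47 with arsenate, against 12.30, 12.71 and 12.27 untreated. For each of these 3 genes, arsenate array 1 was the highest of the wild-type arrays, arsenate array 2 came next and then untreated array 2, the order of the general stress list. Their log2 fold changes were 1.75, 0.98 and 0.82, none of which passed (adjusted p = 0.631 for each), and without the 3 arrays that stood apart they were 0.80, 0.22 and 0.18. The part of the general stress state in these values was not tested.

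GPX1 had the widest range of the members, 7.93 to 13.05 among wild-type arsenate arrays. It gave 13.05, 9.91 and 7.93 with arsenate, against 8.25, 8.61 and 8.15 untreated. The high value was that of arsenate array 1, where the glucose-repressed list was also high, and arsenate array 3 lay below every untreated array. The log2 fold change of 1.96 had a 95% confidence interval from -1.04 to 4.96 (adjusted p = 0.631) and was -0.27 without the 3 arrays that stood apart.

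GPX2, GSH2, GLR1 and GRX5 also overlapped between the wild-type groups. GPX2 gave 9.29, 11.01 and 11.20 with arsenate, against 11.58, 9.06 and 11.50 untreated, so that arsenate array 1 and untreated array 2 lay far below their replicates. Its log2 fold change was -0.21 (95% confidence interval -2.29 to 1.86, adjusted p = 0.899), and -0.34 with the 3 stood-apart arrays omitted. GSH2 gave 11.21, 11.46 and 11.90 with arsenate, against 11.61, 11.51 and 11.75 untreated. Arsenate array 1 was its lowest wild-type array and arsenate array 3 its highest, for a log2 fold change of -0.10 (adjusted p = 0.823), and 0.22 without the 3 arrays that stood apart. GLR1 gave 13.17, 12.83 and 13.02 with arsenate, against 12.61, 12.71 and 12.83 untreated, a log2 fold change of 0.29 (adjusted p = 0.631), and 0.30 under the same omission. GRX5 gave 12.45, 11.77 and 11.83 with arsenate, against 11.71, 11.79 and 11.71 untreated, so that its log2 fold change of 0.28 (adjusted p = 0.631) came mostly from arsenate array 1 and was 0.12 without the arrays that stood apart.

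**Figure D3:**
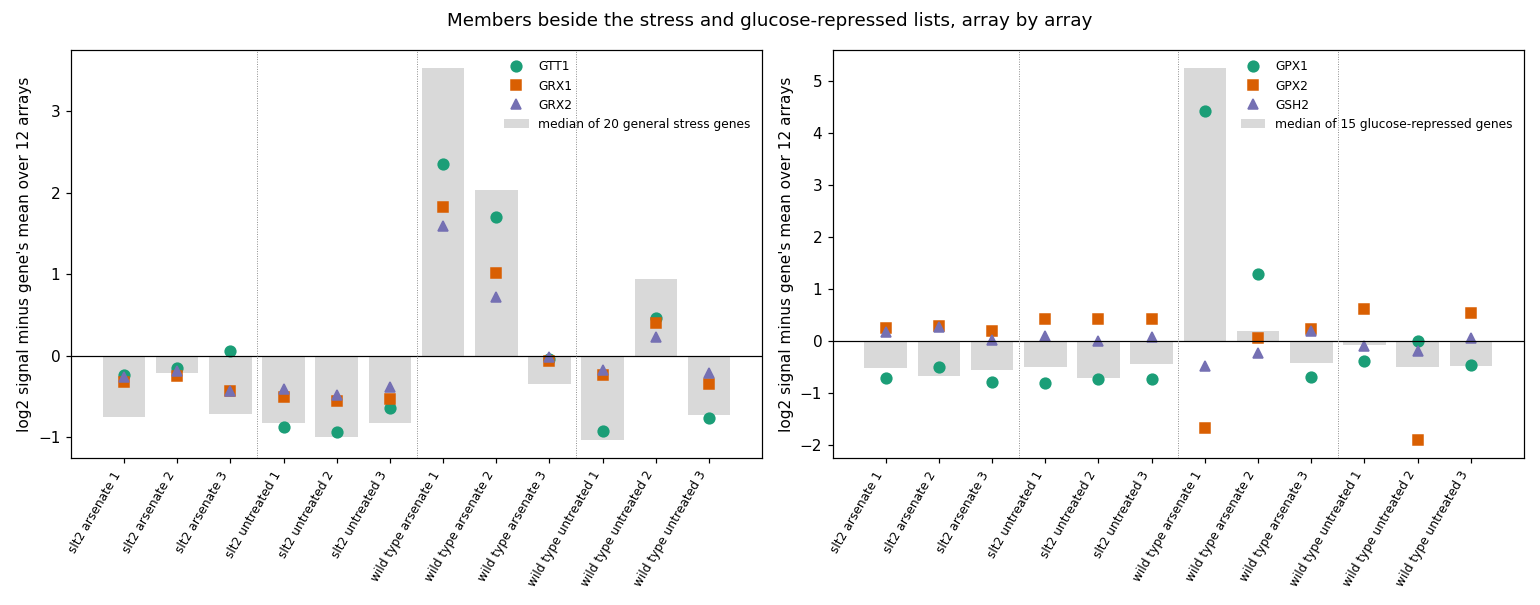
Log2 signal minus the gene's mean over the 12 arrays (vertical axes) on each array, for GTT1, GRX1 and GRX2 beside the median of 20 general stress genes (left, grey bars) and for GPX1, GPX2 and GSH2 beside the median of 15 glucose-repressed genes (right). The grey bars reached 3.52 and 5.26 on wild-type arsenate array 1, where GTT1, GRX1, GRX2 and GPX1 were at their highest and GSH2 at its lowest, while GPX2 was low there and on wild-type untreated array 2.

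Whether arsenate acted differently in slt2 and in wild type was tested over all 12 arrays, as the slt2 effect minus the wild-type one. No member was called, 0% of all genes were, and 28 genes had an unadjusted p under 0.05, none of them a member. Among the genes called in slt2, the estimate was small for GTT2 (difference -0.10, 95% confidence interval -0.98 to 0.78, adjusted p = 0.909) and for GSH1 (difference -0.05, 95% confidence interval -0.74 to 0.64, adjusted p = 0.946). The interval of GSH1 reaches past its own slt2 effect of 0.44. That of GTT2 spans -0.98 to 0.78, beside its own slt2 effect of 1.25. Neither interval shows that the genotypes responded alike. The difference was -1.04 for GTT1 (95% confidence interval -2.75 to 0.67) and -1.87 for GPX1 (95% confidence interval -4.87 to 1.14), each with adjusted p = 0.711. Omitting the 3 stood-apart arrays left wild-type arsenate array 3 alone in its group. These differences then became -0.10 for GTT1 and 0.36 for GPX1, and those of GTT2 and GSH1 turned sign, to 0.14 and 0.10. The other members had differences from -0.79 to 0.20 over all arrays and from -0.15 to 0.16 under that omission, where GSH2 turned sign and had -0.13 in place of 0.20.

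No member passed between the genotypes. Each fit shared 1 variance although the wild-type arrays spread more, so its unadjusted p-values under 0.05 and its intervals may be too optimistic. With arsenate, the 3 slt2 arrays lay below the 3 wild-type arrays for GRX1, GRX2 and GRX5 and above them for GSH1. Over all genes, 23.6% were apart in this way with slt2 lower and 16.5% with slt2 higher, and 0.0184% were called by adjusted p. That share is 1 gene, called lower in slt2, and the deleted SLT2 was among the genes tested. The log2 fold changes, slt2 over wild type, were -1.26 for GRX1, -1.06 for GRX2, -0.53 for GRX5 and 0.19 for GSH1 (adjusted p = 0.365, 0.365, 0.365 and 0.455). GRX1 and GRX2 had an unadjusted p under 0.05, as did 8.9% of all genes. Omitting the 3 stood-apart arrays left wild-type arsenate array 3 alone in its group. The values for the glutaredoxins were then -0.27, -0.28 and -0.34, and that for GSH1 was 0.05. GPX1 had the value farthest from 0 of the 10 members, -2.34 (adjusted p = 0.365), and it was 0.03 under that omission. GTT1 had -1.45 over all arrays and -0.07 under the omission, and GPX2 had 0.70 and 0.00. GSH2 turned sign, at 0.33 over all arrays and -0.05 under the omission, while GTT2 had -0.39 and -0.31 and GLR1 -0.02 and -0.03. GTT1 was 11.01 to 11.30 on the slt2 arsenate arrays, and 11.20 on wild-type arsenate array 3, the 1 wild-type arsenate array within that range. GTT2 was 8.44 to 8.46 on the slt2 arsenate arrays and 8.75 on the same wild-type array.

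Without arsenate, the 3 slt2 arrays lay below the 3 wild-type arrays for GRX1, GRX2, GRX5 and GPX1, and for no member above them. Over all genes, 17.9% were apart with slt2 lower, 8.94% were apart with slt2 higher and 0.0184% were called, again 1 gene, lower in slt2. GRX1 averaged 11.22 ± 0.03 in slt2 and 11.69 ± 0.40 in wild type (SD, n = 3 each), a log2 fold change of -0.47 (adjusted p = 0.373). GRX2 averaged 12.06 ± 0.05 in slt2 and 12.43 ± 0.25 in wild type, a log2 fold change of -0.37 (adjusted p = 0.360). GRX5 averaged 11.52 ± 0.08 in slt2 and 11.74 ± 0.04 in wild type, a log2 fold change of -0.21 (adjusted p = 0.363). GPX1 averaged 7.86 ± 0.05 in slt2 and 8.34 ± 0.24 in wild type, a log2 fold change of -0.47 (adjusted p = 0.360). GRX2, GRX5 and GPX1 had an unadjusted p under 0.05, as did 13.6% of all genes. Without wild-type untreated array 2, in the run without the arrays that stood apart, these log2 fold changes were -0.24, -0.22, -0.19 and -0.34 for GRX1, GRX2, GRX5 and GPX1, each still below 0. GSH1, GSH2, GTT1, GTT2, GLR1 and GPX2 overlapped between untreated genotypes, with log2 fold changes from -0.41 to 0.67. Both ends of this range depended on wild-type untreated array 2: without it GTT1 had 0.03 in place of -0.41 and GPX2 -0.16 in place of 0.67. GSH1 had -0.04 in place of 0.24 there, and GTT2, GSH2 and GLR1 had -0.44, 0.08 and 0.01, against -0.29, 0.13 and 0.02 over all arrays. The 2 genotype comparisons and the 2 arsenate effects share arrays, so they are not independent of each other. Whether both genotypes were summarised in 1 RMA run is not stated, so an offset between runs and a difference between genotypes cannot be told apart in these levels.

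**Figure D4:**
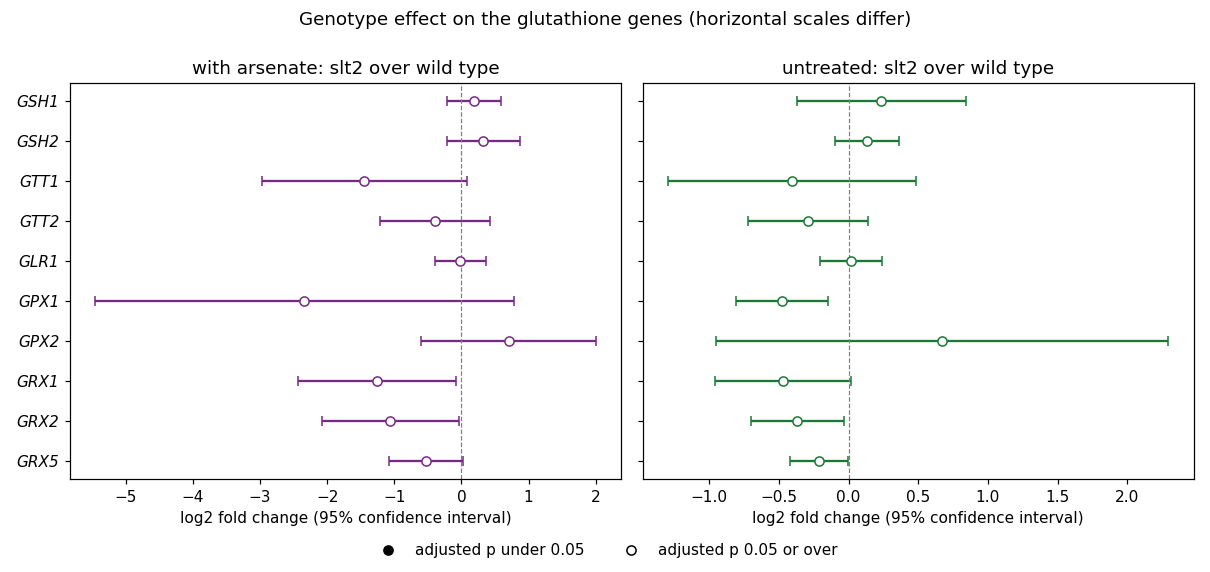
Log2 fold change of each member, slt2 over wild type (horizontal axes, which differ in scale between the panels), with its 95% confidence interval, with arsenate (left) and untreated (right). All points are open because no member passed an adjusted p under 0.05. GRX1, GRX2, GRX5, GTT1, GTT2 and GPX1 lay below 0 in both panels, from -2.34 to -0.21.

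Members were also compared by their pattern over the 12 arrays, as a description in which the points share groups and the wild-type arrays that stood apart. GRX1 and GRX2 had the highest correlation of any pair of members (Pearson r = 0.994), and GSH2 and GPX1 the lowest (r = -0.847). Among all genes, GTT2 was most like YML131W (r = 0.980), OYE3 (r = 0.973), GRE2 (r = 0.945), FMP23 (r = 0.941) and MTL1 (r = 0.940). OYE3 encodes an NADPH oxidoreductase, GRE2 a methylglyoxal reductase and MTL1 a cell wall stress sensor. The genes most like GTT1 were PST2 (r = 0.995), HYR1 (r = 0.989), APE1 (r = 0.986), PRC1 (r = 0.985) and RTC3 (r = 0.984). HYR1 encodes a further yeast peroxidase of the Gpx family and the peroxide sensor of Yap1, and APE1 and PRC1 encode vacuolar peptidases. Those most like GSH1 were YDR194W-A (r = 0.914), MPA43 (r = 0.913), SBE2 (r = 0.909), ASA1 (r = 0.901) and YBR259W (r = 0.894).

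The wider glutathione system was followed in 28 further genes for transport, breakdown, other transferases and glutaredoxins, glyoxalases, cysteine supply and regulators. In slt2, 4 of the 28 were called higher with arsenate and none lower, beside the 1.91% and 0.551% of all genes given above. The median log2 fold change was 0.06. OPT1, the plasma membrane transporter of glutathione, gave 10.96, 10.94 and 11.09 with arsenate, against 10.28, 10.03 and 10.25 untreated. It rose by 0.81 (SE 0.08, adjusted p = 0.00673). ECM4, an omega-class transferase gene, rose by 0.39, SFA1, the glutathione-dependent formaldehyde dehydrogenase gene, by 0.28, and YCF1, the vacuolar pump gene, by 0.27 (adjusted p = 0.0173, 0.0294 and 0.0414).

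Relatives of the members were among those that did not pass in slt2. HYR1 had a log2 fold change of 0.25 (adjusted p = 0.106), the monothiol glutaredoxin genes GRX3 and GRX4 0.04 and -0.10, and the omega-class transferase genes GTO1 and GTO3 0.26 and 0.27. The breakdown genes ECM38, DUG2 and DUG3 had 0.22, -0.04 and 0.02. YAP1, which is named here after its values were seen, had a log2 fold change of -0.20 (adjusted p = 0.241), with all 3 arsenate arrays below the untreated ones. In wild type none of the 28 was called or had an unadjusted p under 0.05. There, OPT1 gave 7.87, 8.49 and 10.43 with arsenate, against 8.86, 9.53 and 9.98 untreated, a log2 fold change of -0.53 (adjusted p = 0.699), with arsenate array 3 the highest and arsenate array 1 the lowest. Of the 28, none was called in either genotype comparison or in the difference of effects, and 2, 6 and 0 had an unadjusted p under 0.05 with arsenate, without arsenate and for the difference. These were 7.14%, 21.4% and 0% of the 28, against 8.9%, 13.6% and 0.514% of all genes.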

How the data were processed

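The deposited values are log2 signals per probe set, which the authors made by RMA. Per the submitters' processing notes, the program was Affymetrix Expression Console. RMA corrects background, equalises the distributions of arrays and summarises probes. The medians of the arrays over the genes tested still ran from 10.03 (slt2 untreated array 2) to 10.23 (wild-type arsenate array 1). With arrays centred on their medians the same 3 members were called for arsenate in slt2. Versions, and whether all arrays were summarised in 1 run, are not stated in these notes. The range of the deposited values showed the log2 scale.

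Of 5814 probe sets, 98 were controls. The platform annotation gave 5498 probe sets 1 gene symbol, 0 several and 316 none. All 5498 matched the reference gene table by gene number. The probe set with the highest mean was kept for 47 genes with several, which left 5449 genes. No member had several.

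Limma 3.58.1 in R 4.3.3 (lmFit, eBayes) was fitted to the 6 arrays of each pair of groups, since the groups differ in spread. The difference of effects was fitted to all 12. Fitting by pairs does not remove unequal spread within a pair, as each fit shares 1 variance. Between genotypes with arsenate, the median member SD was 0.08 in slt2 and 0.72 in wild type. P-values were adjusted over 5449 genes by Benjamini-Hochberg, with a threshold of 0.05. Confidence intervals are not adjusted. The script was tested on simulated data. Members, lists, named genes and models were chosen with earlier results of these data known. Named are all 10 members, every called gene of the 28 and relatives of members, and the 5 genes most like each called member. The number of arrays limits the precision. Figures used matplotlib 3.10.9 in Python 3.11.15. Promoter motifs were planned but not analysed here.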

Additional observations from a re-analysis of the deposited data

Results flagged for a closer look

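GRX5 passed in neither genotype, and its groups overlapped in both, but its arrays lay on opposite sides of the untreated mean in the 2 genotypes. All 3 slt2 arsenate arrays lay below the slt2 untreated mean, by 0.06, 0.04 and less than 0.01 log2 units, and all 3 wild-type arsenate arrays lay above the wild-type untreated mean, by 0.72, 0.03 and 0.09. The difference of effects, slt2 minus wild type, was -0.31 (SE 0.24) and did not pass in limma (adjusted p = 0.711). The slt2 log2 fold change of -0.03 became 0.01 without slt2 untreated array 3. With the 3 stood-apart arrays omitted, which leaves wild-type arsenate array 3 alone in its group, the difference of effects was -0.15. No group had enough arrays for a formal search for single outlying arrays, and the 3 stood-apart arrays were not picked by such a search here.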

How the results depend on the processing

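The 3 members called for arsenate in slt2 became 0 in the 12-array model, whose spread comes largely from wild type (adjusted p = 0.596 for GTT2 and 1 for GSH1 and GTT1), 5 with a second quantile normalization (GLR1 and GPX2 added), 6 with a prior that follows signal and is robust (GLR1, GRX1 and GPX2 added) and 4 with 1 weight per group (GLR1 added). Leaving out 1 slt2 array gave 1 to 2. The replicate block gave 2, GTT1 and GTT2, and GSH1 lost its call (adjusted p = 0.0728). Replicate numbers were not taken to pair samples: the correlation of same-numbered deviations in slt2 was 0.392, 0.051 and 0.234, and it was 0.1 or less in at least 1 number of each comparison. Of 12 calls lost in slt2 over all settings and 6 gained, none changed sign.

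The 134 genes called in slt2 became 2 in the 12-array model, 214 with weights, 242 with centred arrays, 341 with quantile normalization, 411 with the robust prior, 28 with the block and 41 to 107 with 1 array left out. No member was called in the other 4 comparisons under any setting run, while the genes called went from 0 to 22 for the difference and from 1 to 14 for slt2 against wild type with arsenate, both without wild-type arsenate array 3 (2 in the 12-array model and 0 with the block or the weights for the second), and from 1 to 5 without arsenate, without wild-type untreated array 3 (2 without the arrays that stood apart). For arsenate in wild type the 0 genes called became 1 in the 12-array model and 3 without those arrays. In wild type, members whose groups did not overlap went from 1 to 2 with centred arrays. Uncalled members changed sign in 2, 6, 5, 8 and 13 of the values for arsenate in slt2, in wild type, the 2 genotype comparisons (with, then without arsenate) and the difference.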
